A study of Mus musculus with 21 samples.

Results

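The 28 genes described here encode the enzymes that build cholesterol and fatty acids, the proteins that control these enzymes, and a carrier of the sterol product. They were followed in mouse embryonic stem cells of the line CGR8 and in the embryoid bodies that these cells form when they aggregate and begin to differentiate. The genes were taken by name from a list of 29. Acat2, a thiolase gene at the entry to the pathway, had no probe set under that name in the platform annotation, which left 28 of the 18193 genes measured. Transcripts were hybridised to an Affymetrix mouse array on 21 arrays, 3 for each of 7 groups, which the submitters call biological replicates. The groups were embryoid bodies grown with 100 µM ascorbic acid (vitamin C) and collected at day 2, day 3 or day 5, control embryoid bodies of the same 3 days without it, and undifferentiated cells at day 0. All come from the 1 cell line, aggregates were started from 500 cells in drops of 25 µL, and cultures were carried forward only if ascorbic acid later raised their number of beating aggregates. The labels give 10% GMEM as the medium at day 0 and 20% IMDM for the embryoid bodies, so medium and time in culture cannot be told apart between day 0 and later days.

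Cholesterol is made from acetyl-CoA in a mevalonate arm, which ends in farnesyl diphosphate, and a sterol arm, which joins farnesyl units into squalene, closes the ring to lanosterol and trims it to cholesterol. Fatty acids are made from the same acetyl-CoA by carboxylation, chain growth on fatty acid synthase and desaturation. Both chains are controlled by SREBP transcription factors, which are held in the endoplasmic reticulum with the escort protein SCAP by INSIG proteins when sterols are plentiful, and are cut free to enter the nucleus when sterols run low. Most enzymes of the sterol chain, Insig1 and Stard4 are known targets of SREBP. Growing cells need the products for new membrane, and sterols also modify Hedgehog proteins in the embryo.

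Signals and differences are on the log2 scale throughout unless a fold is named. A gene was called where its limma adjusted p, over all 18193 genes, was under 0.05. No member was dim: the lowest member signal on any array was 6.58, among values of 2.51 to 14.51. Stem cell markers averaged 6.38 to 6.73 on the day 5 control arrays and 9.88 to 11 on the day 0 arrays, over 8 of 8 genes listed. One day 0 array differed from the rest of its group. Replicate 1 of day 0 had r of 0.969 and 0.966 with the other day 0 arrays, which had 0.989 with each other. On that array 21 of 28 members were lower than on both other day 0 arrays, as were 6525 of 18193 genes, and the median difference from their mean was -0.54 for members and 0.025 for all genes. Msmo1 (-2.19), Scd1 (-2.18) and Scd2 (-1.94) differed most. Counts and calls against day 0 are therefore given with and without it.

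Day 0 was the low point for most of the set. The group mean was lowest at day 0 for 22 of 28 members and highest at day 0 for 0. It was lowest there for 18 without day 0 replicate 1. The same counts were not made over all genes. The median deviation of the members from their own means was -1.13, -0.136 and -0.637 on the 3 day 0 arrays. It lay between -0.199 and 0.0224 on day 2 control arrays, between -0.12 and 0.0224 on day 3 control arrays, and between -0.0133 and 0.265 on day 5 control arrays. Ascorbic acid arrays spanned -0.125 to 0.268 at day 2, 0.164 to 0.324 at day 3 and -0.0312 to 0.292 at day 5. The ranges with and without ascorbic acid were separate at day 3 and overlapped at days 2 and 5. In bulk RNA, fewer cells of a type and less RNA per cell cannot be told apart.

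**Figure D1:**
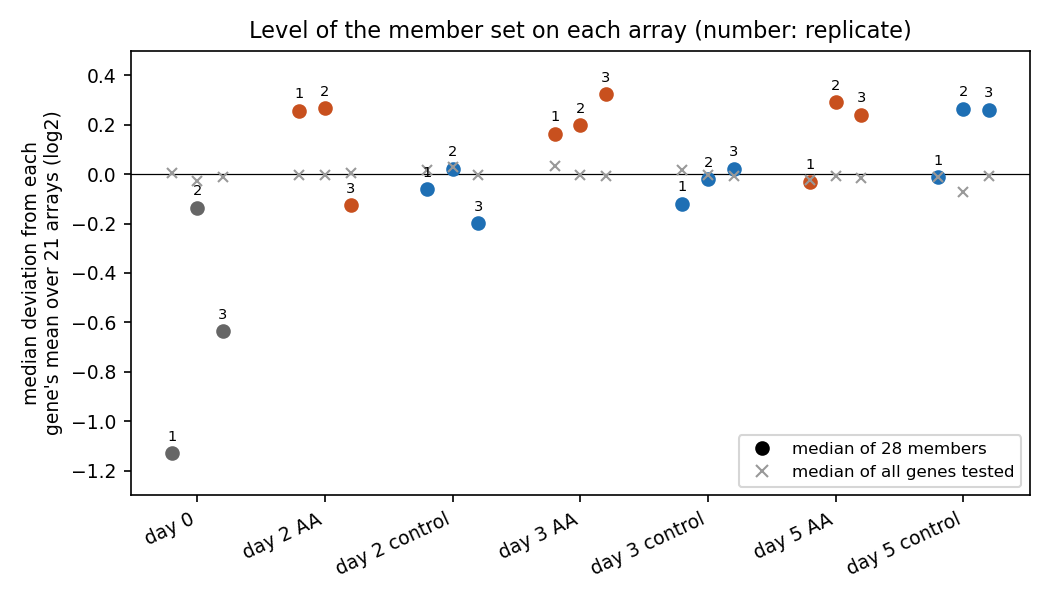
Median deviation of the 28 members from each gene's mean over 21 arrays (y axis, log2) on every array of the 7 groups (x axis; numbers are replicates), with the same median over all genes tested as grey crosses. The day 0 arrays lie at -1.13, -0.136 and -0.637, with replicates 1 and 3 below every later array, and at day 3 the ascorbic acid arrays (0.164 to 0.324) lie above the control arrays (-0.12 to 0.0224).

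**Figure D2:**
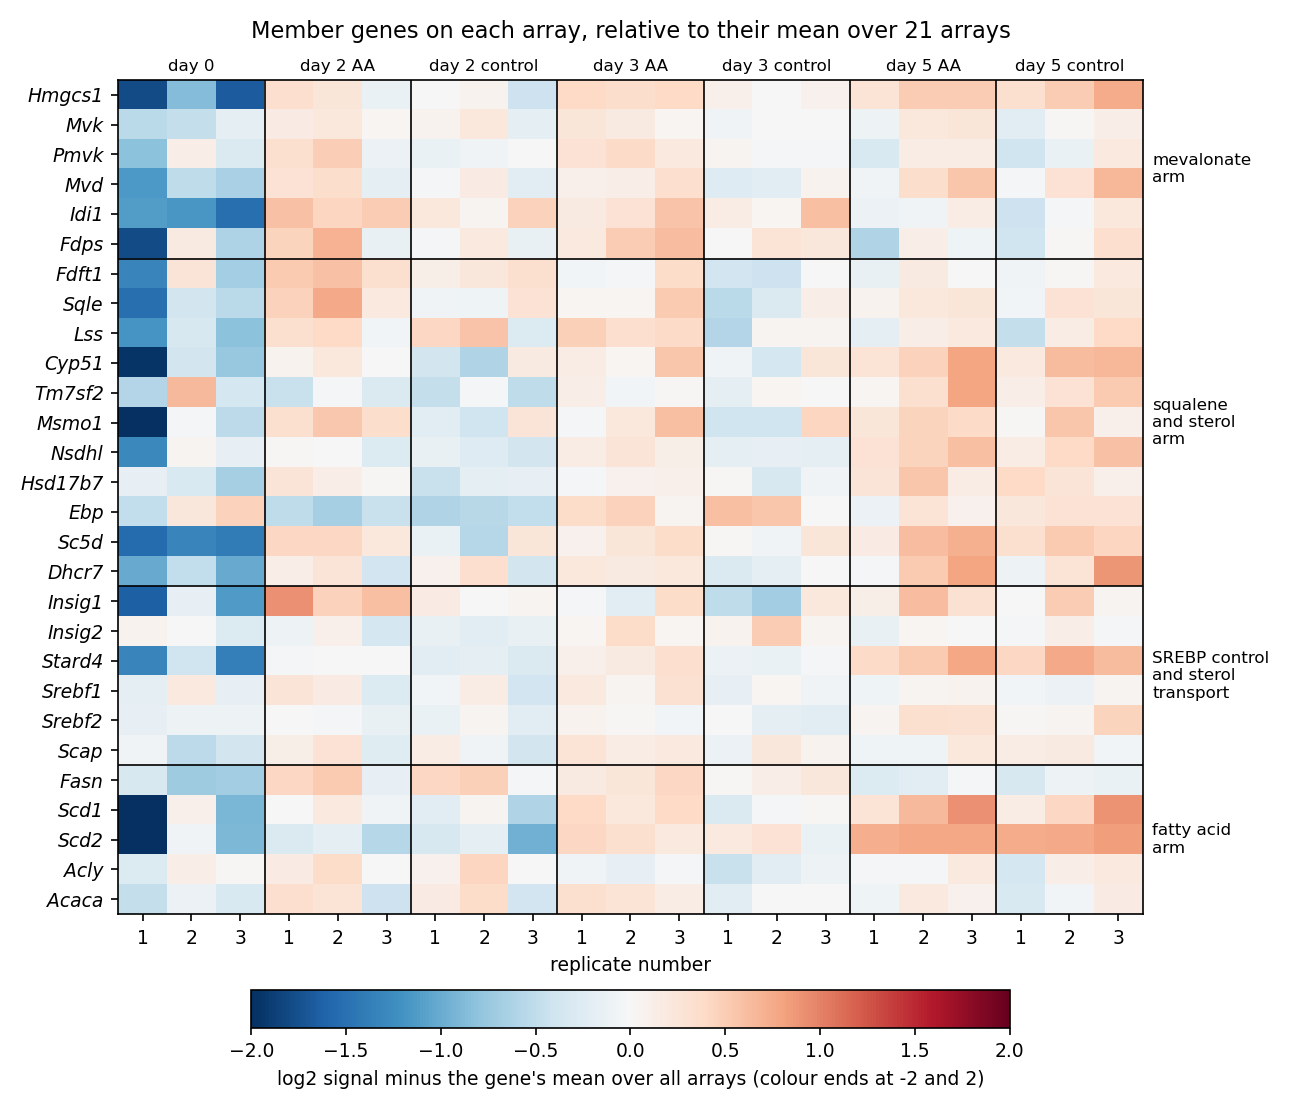
Log2 signal of each member on each array minus its mean over the 21 arrays, with genes in rows ordered by role and arrays in columns by group and replicate; colours end at -2 and 2. The blue block at day 0 covers most rows and is deepest on replicate 1, while Insig2, Srebf1, Srebf2 and Acly stay pale throughout.

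Promoters are shown because many members differed in the same direction. RefSeq's promoter table (GRCm38.p6), which gives 250 bases before and 50 after each start, held 22 of the 28 members, and not Fdps, Fdft1, Sqle, Stard4, Scd1 or Scd2. Some genes had more than 1 start (32851 windows for 27025 genes), and a gene was counted where any of its windows held a motif. These windows were searched on both strands for TCACNCCA, the core of a sterol regulatory element to which SREBP binds, and for CCAAT, the box bound by NF-Y, and GGGCGG, the box bound by Sp1, its known partners on sterol genes. CCAAT stood in 20 of 22 members (90.9%), against 42% of 14452 genes of the array with a promoter in the table and 41.1% of all 27025 genes in it. GGGCGG stood in 19 of 22 (86.4%), against 57.3% and 38.2%. TCACNCCA stood in 3 of 22 (13.6%), namely Hmgcs1, Msmo1 and Srebf2, against 4.7% and 4.97%. A match is a description of these letters in this window and not a shown site. The 250 bases before the start follow for 6 members: Hmgcs1, Idi1 and Insig1, called higher at day 2 than at day 0 in both arms, Msmo1, called higher there with ascorbic acid, Srebf2, which encodes an SREBP and differed little between groups on the probe set used, and Ebp, called lower at day 2. Capitals mark CCAAT or its complement ATTGG, and TCACNCCA, and no marked motif overlaps another.
Hmgcs1: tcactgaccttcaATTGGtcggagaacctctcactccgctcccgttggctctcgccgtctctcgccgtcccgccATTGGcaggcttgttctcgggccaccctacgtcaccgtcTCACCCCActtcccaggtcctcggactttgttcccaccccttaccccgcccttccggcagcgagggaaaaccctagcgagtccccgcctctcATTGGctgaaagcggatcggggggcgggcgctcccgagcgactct
Idi1: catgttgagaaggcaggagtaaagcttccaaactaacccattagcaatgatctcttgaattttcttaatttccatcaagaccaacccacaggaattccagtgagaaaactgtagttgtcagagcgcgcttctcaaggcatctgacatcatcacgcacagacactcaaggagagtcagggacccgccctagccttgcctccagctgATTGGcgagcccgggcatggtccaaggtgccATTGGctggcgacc
Msmo1: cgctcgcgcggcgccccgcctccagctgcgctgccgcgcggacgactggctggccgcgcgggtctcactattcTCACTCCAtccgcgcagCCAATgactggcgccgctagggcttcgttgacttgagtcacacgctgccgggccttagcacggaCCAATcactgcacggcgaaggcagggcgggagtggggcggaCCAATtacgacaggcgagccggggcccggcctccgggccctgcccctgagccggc
Insig1: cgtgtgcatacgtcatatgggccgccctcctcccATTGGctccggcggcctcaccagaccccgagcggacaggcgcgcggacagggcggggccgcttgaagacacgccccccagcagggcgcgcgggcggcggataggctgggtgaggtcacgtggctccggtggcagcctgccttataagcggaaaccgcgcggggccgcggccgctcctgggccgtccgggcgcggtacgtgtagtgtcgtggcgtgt
Srebf2: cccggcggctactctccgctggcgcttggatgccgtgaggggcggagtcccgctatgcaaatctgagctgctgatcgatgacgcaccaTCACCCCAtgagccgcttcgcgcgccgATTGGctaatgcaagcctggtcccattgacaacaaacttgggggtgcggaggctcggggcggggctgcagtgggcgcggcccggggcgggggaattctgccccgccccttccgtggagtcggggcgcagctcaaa
Ebp: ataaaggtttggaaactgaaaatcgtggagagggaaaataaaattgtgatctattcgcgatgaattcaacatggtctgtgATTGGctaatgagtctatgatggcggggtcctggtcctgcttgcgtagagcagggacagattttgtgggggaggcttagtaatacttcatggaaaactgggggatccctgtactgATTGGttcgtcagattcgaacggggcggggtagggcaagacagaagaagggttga

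The windows lie on GRCm38.p6 at chr13:119690101-119690350 on the + strand for Hmgcs1, chr13:8885356-8885605 on the + strand for Idi1, chr8:64733579-64733828 on the - strand for Msmo1, chr5:28071162-28071411 on the + strand for Insig1, chr15:82147019-82147268 on the + strand for Srebf2 and chrX:8193513-8193762 on the - strand for Ebp. Each is written 5′ to 3′ in the direction of the gene. Hmgcs1 and Msmo1 carry 3 CCAAT boxes each with 1 TCACNCCA, Idi1 and Ebp carry 2 CCAAT boxes, and Insig1 and Srebf2 carry 1.

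The first comparison asks how the set changed as stem cells formed aggregates, from day 0 to day 2. In day 2 control embryoid bodies 12 members were higher than at day 0 and 1 was lower, where 4.8% of all genes were called higher and 6.99% lower (11.8% in all). The median difference was 0.745 over the members and 0.0333 over all genes, and 11 members had 3 day 2 arrays above all 3 day 0 arrays, as had 10.5% of all genes. Without day 0 replicate 1, 7 members were higher and 1 was lower, 20.4% of all genes were called, and the members' median was 0.276.

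In the mevalonate arm, 4 of 6 genes rose between day 0 and day 2. Idi1, which isomerises isopentenyl diphosphate, had 10.98, 10.83 and 11.24 in day 2 control embryoid bodies, against 9.66, 9.62 and 9.27 at day 0. The groups were far apart, and the difference was 1.5 ± 0.17 (SE), or 2.83-fold (adjusted p = 1.78e-05, limma). Hmgcs1, which makes the HMG-CoA that feeds the pathway, had 11.99, 12.05 and 11.57 in day 2 control embryoid bodies, against 10.20, 11.12 and 10.32 at day 0. Every day 2 array was above every day 0 array, by 1.32 ± 0.18 on average (adjusted p = 0.000132). Mvd, the decarboxylase of the arm, differed by 0.74 ± 0.20 (adjusted p = 0.0204) and Mvk, mevalonate kinase, by 0.44 ± 0.13 (adjusted p = 0.0376). Pmvk, the second kinase, differed by 0.26 (adjusted p = 0.477). Fdps, farnesyl diphosphate synthase, had 8.61 on day 0 replicate 1 and 10.58 on replicate 2, and its difference of 0.75 was not called (adjusted p = 0.169). Without day 0 replicate 1, Idi1 (1.57) and Hmgcs1 (1.15) stayed called, and Mvk (adjusted p = 0.0832) and Mvd (adjusted p = 0.0623) did not.

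In the squalene and sterol arm, 5 of 11 genes rose and 1 fell. Sc5d, a desaturase of late sterols, had 7.99, 7.56 and 8.37 in day 2 control embryoid bodies, against 6.58, 6.81 and 6.72 at day 0. The day 0 values lay close together and all below day 2, with a difference of 1.27 ± 0.17, or 2.41-fold (adjusted p = 0.000115). Lss, lanosterol synthase, rose by 1.00 ± 0.25, Dhcr7, a reductase that can complete cholesterol, by 0.85 ± 0.24, Sqle, squalene epoxidase, by 0.85 ± 0.24, and Fdft1, squalene synthase, by 0.81 ± 0.25 (adjusted p of 0.0121, 0.0272, 0.0225 and 0.0371). Fdft1 overlapped between the groups, since day 0 replicate 2 had 10.52 and the day 2 arrays 10.39 to 10.58. Ebp, the sterol isomerase of the arm, went the other way. It had 7.93, 7.98 and 8.04 in day 2 control embryoid bodies, against 8.04, 8.76 and 9.0 at day 0. Its difference was -0.62 ± 0.20 (adjusted p = 0.0458), the low day 0 value was that of replicate 1, and without it the difference was -0.90 (adjusted p = 0.00057). The call was marginal: it held in 5 of the 21 fits that each left out 1 array, and it was lost after the arrays were quantile normalised again, with every probe set tested, and with only the groups compared in the fit. Sc5d, Lss and Dhcr7 stayed called without day 0 replicate 1, and Sqle and Fdft1 did not. Msmo1, a methylsterol oxidase, had 9.75, 9.56 and 10.22 in day 2 control embryoid bodies, against 7.50, 9.93 and 9.44 at day 0. The 2 groups overlapped, the difference of 0.89 was not called (adjusted p = 0.167), and without day 0 replicate 1 it was 0.16. Cyp51, which demethylates lanosterol, differed by 0.77 (adjusted p = 0.098), Nsdhl and Hsd17b7, which act in the removal of methyl groups, by 0.20 and 0.12, and Tm7sf2, a sterol reductase, by -0.24, none of them called.

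Among the genes of SREBP control, Insig1 and Stard4 rose and the other 4 genes were not called. Insig1 had 9.19, 9.02 and 9.08 in day 2 control embryoid bodies, against 7.39, 8.86 and 7.89 at day 0. The day 2 arrays were nearly level and the day 0 arrays spread widely, with a difference of 1.05 ± 0.28 (adjusted p = 0.0192), and 0.72 (adjusted p = 0.0639) without day 0 replicate 1. Stard4, a cytosolic sterol carrier, rose by 0.80 ± 0.18 (adjusted p = 0.00669), and by 0.66 (adjusted p = 0.0173) without that array. Srebf2, the SREBP gene with the larger part in sterol synthesis, had 8.97, 9.15 and 8.88 in day 2 control embryoid bodies, against 8.94, 9.0 and 9.0 at day 0, a difference of 0.02 ± 0.12 (adjusted p = 0.945). Srebf1, which encodes the SREBP better known for fatty acid synthesis, differed by -0.05 ± 0.15 (adjusted p = 0.878). Scap differed by 0.23 (adjusted p = 0.428) and Insig2 by -0.10 (adjusted p = 0.745).

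In the fatty acid arm 1 of 5 genes rose. Fasn, fatty acid synthase, had 11.07, 11.13 and 10.63 in day 2 control embryoid bodies, against 10.33, 9.94 and 9.95 at day 0. All day 2 arrays were higher, by 0.87 ± 0.16 (adjusted p = 0.00164), and by 1.00 (adjusted p = 0.000223) without day 0 replicate 1, which was the highest day 0 array for this gene. Acly, which supplies cytosolic acetyl-CoA, and Acaca, acetyl-CoA carboxylase, differed by 0.21 and 0.34 without a call. Scd1 and Scd2, the desaturases that make monounsaturated fatty acids, had wide day 0 groups. Scd1 had 9.36, 9.62 and 8.96 in day 2 control embryoid bodies, against 6.99, 9.67 and 8.66 at day 0, and Scd2 had 11.82, 11.95 and 11.18, against 9.72, 12.07 and 11.24. Both overlapped and were not called (adjusted p = 0.18 and 0.267), and without day 0 replicate 1 their differences were 0.15 and -0.01.

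The arm grown with ascorbic acid was set against the same 3 day 0 arrays, so its values stand beside those of the control arm and are not a second test of day 0. With ascorbic acid 16 members were higher at day 2 than at day 0 and 1, Ebp, was lower, where 7.42% of all genes were called higher and 6.27% lower (13.7% in all). The median was 0.837. The 13 members called in the control arm were all called in this arm, with a larger difference in 9 of them. The 4 further calls were Fdps (1.07), Cyp51 (1.13), Msmo1 (1.41) and Hsd17b7 (0.52). Without day 0 replicate 1, 14 were higher and 1 was lower, where 19.6% of all genes were called: Fdps, Msmo1 and Dhcr7 lost their calls and Scap gained one. Without replicate 2 of day 2 with ascorbic acid 11 members were called, and Ebp held its call in 7 of the 21 fits that each left out 1 array, and lost it with arrays centred on their medians, with every probe set tested, and with only the groups compared in the fit.

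Day 0 was also the most variable group for many members. The median SD of a member was 0.451 at day 0, against 0.176 for the median of the other groups, and 15 of 28 members varied most at day 0. Fitted on the day 2 control and day 0 arrays alone, limma called only Idi1 and Sc5d of the members, and leaving out replicate 1 or replicate 2 of the day 2 control group left 6 or 7 calls. For Actb, the 3′ probe set read above the 5′ probe set, a measure of RNA integrity, by 1.22, 1.40 and 0.94 on the day 2 control arrays and 0.91, 1.08 and 0.91 on the day 2 ascorbic acid arrays, against 0.79, 0.82 and 0.87 at day 0, and its part in these differences was not tested. Of 36 further probe sets that the annotation gives to members, 32 had the same sign of difference as the probe set used in day 2 control embryoid bodies, 16 of 16 for the called members, and 7 of these were called as well. With ascorbic acid 32 of 36 had the same sign, 21 of 23 for the called members, and 12 of these were called as well.

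**Figure D3:**
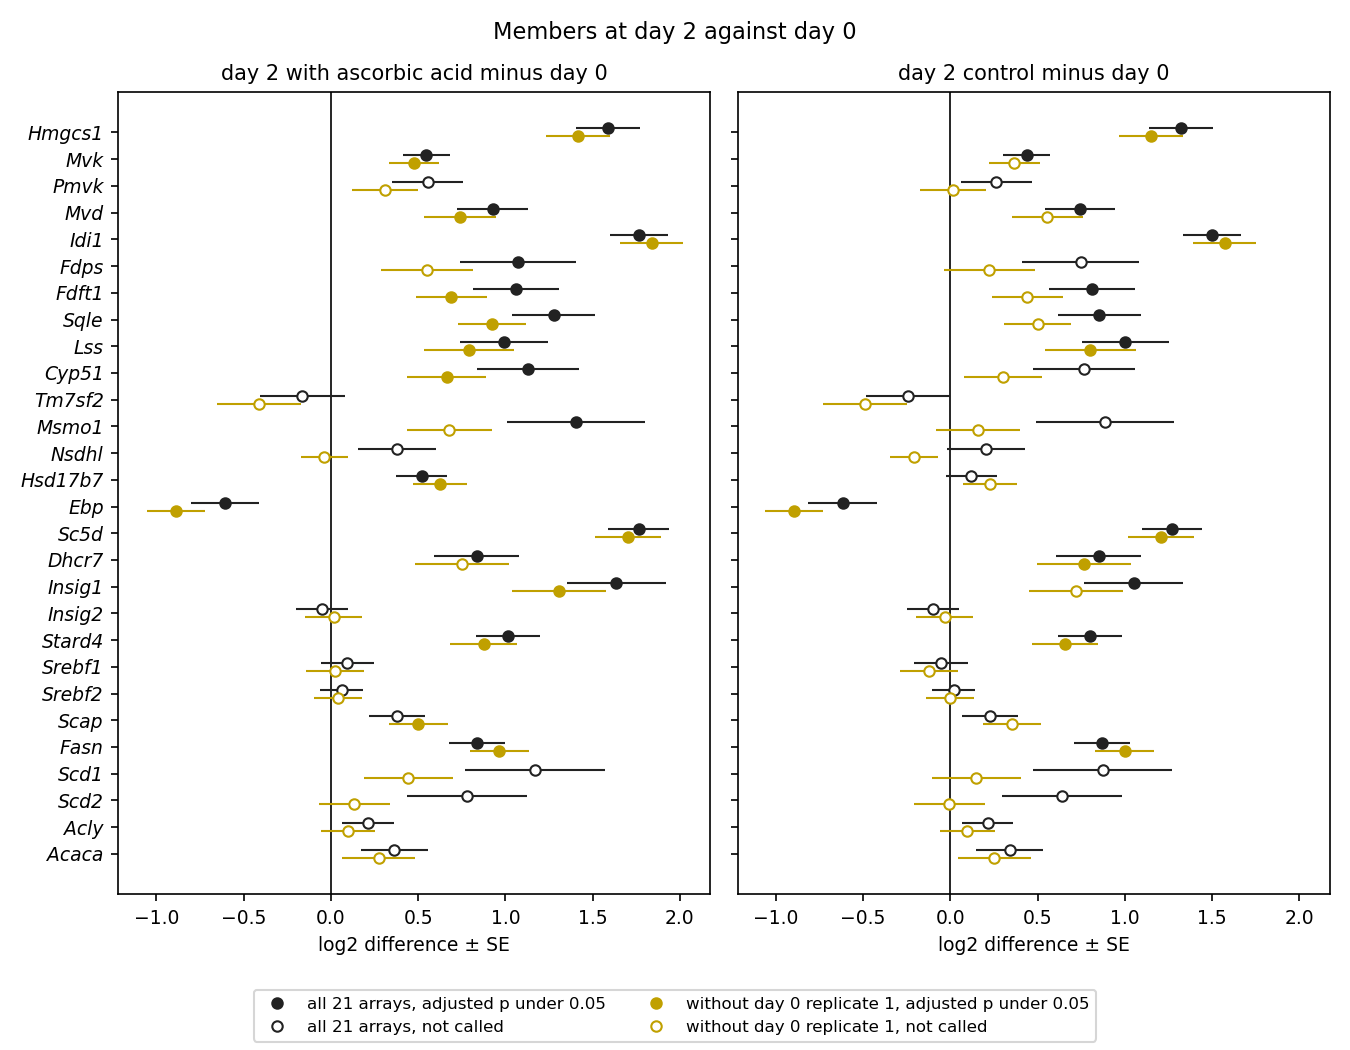
Log2 difference at day 2 from day 0 for each member (x axis, bars are SE from limma), with ascorbic acid on the left and control on the right, from all 21 arrays (black) and without day 0 replicate 1 (ochre); filled points have an adjusted p under 0.05. Hmgcs1, Idi1, Sc5d, Stard4 and Fasn lie above 0 and Ebp below 0 in every setting shown, while Scd2 and Msmo1 move toward 0 without that array.

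**Figure D4:**
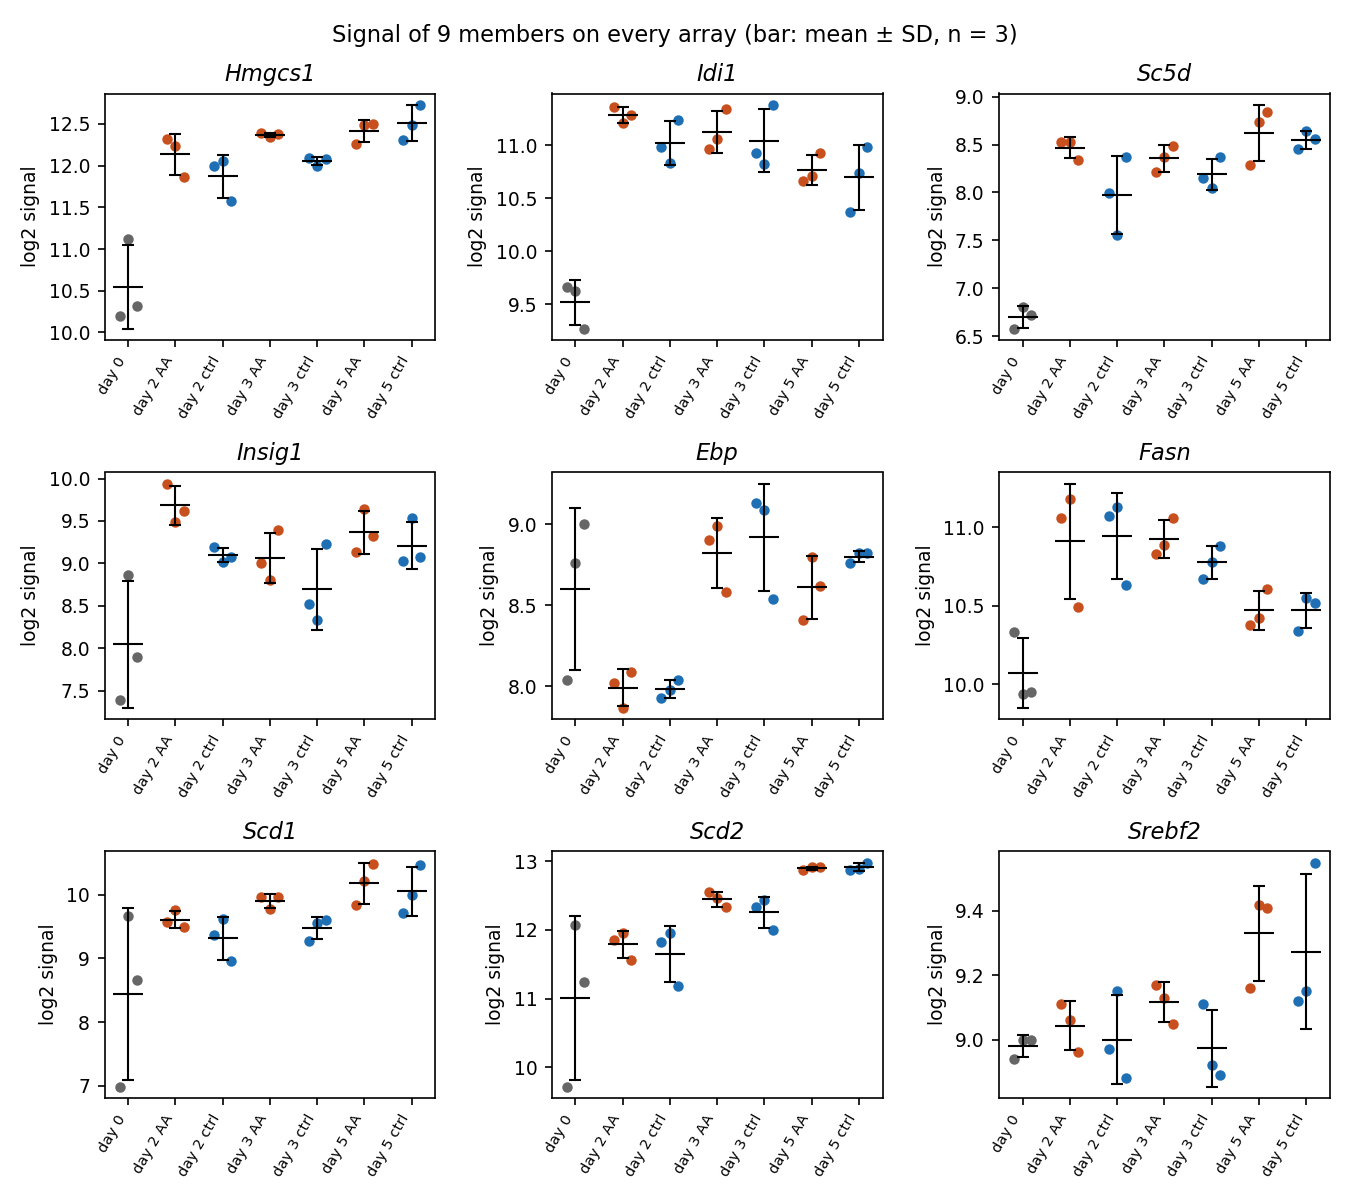
Log2 signal of 9 members on every array (points; y axis, own range in each panel) by group (x axis), with group mean and SD, n = 3. Hmgcs1, Idi1 and Sc5d stand lower at day 0 than at any later day, Ebp dips at day 2 in both arms, and Srebf2 stays within 8.88 to 9.55.

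Between day 2 and day 3 Ebp rose again, and no other member was called in either arm. Ebp had 9.13, 9.09 and 8.54 in day 3 control embryoid bodies, against 7.93, 7.98 and 8.04 at day 2. Every day 3 array was higher, by 0.94 ± 0.20 (adjusted p = 0.00782), where 5.81% of all genes were called (885 higher and 172 lower, and 581 and 238 after the arrays were quantile normalised again). With ascorbic acid Ebp had 8.90, 8.99 and 8.58 at day 3, against 8.02, 7.87 and 8.09 at day 2, a difference of 0.83 ± 0.20 (adjusted p = 0.0174), where 4.69% of all genes were called (620 higher and 234 lower, and 506 and 327 after quantile normalisation). The rise was thus called in both arms, which are not independent. Arrays of the same day and number deviated together, and replicate 3 was the lowest day 3 array for Ebp in both arms (8.54 and 8.58). In the control arm the call of Ebp was lost without day 3 control replicate 1 or 2. In the ascorbic acid arm it was lost without replicate 2 or 3 of day 2 or replicate 1 or 2 of day 3. The median difference of the members was 0.0483 in the control arm, -0.0948 after quantile normalisation, and 0.128 with ascorbic acid. Acly, the acetyl-CoA supplier, had 11.16, 11.40 and 11.5 in day 3 control embryoid bodies, against 11.70, 12.04 and 11.61 at day 2, and missed the call (-0.43 ± 0.15, adjusted p = 0.0977), but was called lower after quantile normalisation.

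Between day 3 and day 5 control embryoid bodies 22 of 28 differences were above 0, as were 44.9% over all genes, with a median of 0.328, and 1 member was called where 18.3% of all genes were (9.08% higher and 9.24% lower). Stard4 had 8.99, 9.33 and 9.20 in day 5 control embryoid bodies, against 8.46, 8.44 and 8.55 at day 3. The groups were separate, by 0.69 ± 0.18 (adjusted p = 0.0104). The call was lost without day 5 control replicate 2 and with the mean of all probe sets of a gene. Of its other 2 probe sets, one differed by 0.80 (adjusted p = 0.00653) and the other by -0.02 (adjusted p = 0.973) when every probe set was tested. Without day 0 replicate 1 or 2, which enter only through the shared spread, 3 members were called, among them Nsdhl. Scd2 had 12.88, 12.89 and 12.98 in day 5 control embryoid bodies, against 12.34, 12.43 and 12.00 at day 3, and was called without day 0 replicate 1 but not with all arrays (0.66 ± 0.34, adjusted p = 0.218). With ascorbic acid 0 members were called between these days, where 18.1% of all genes were, and 5164 genes had an unadjusted p under 0.05. The median was 0.0683, with 15 of 28 differences above 0, against 46.2% of all genes. Fasn had 10.38, 10.42 and 10.61 at day 5 with ascorbic acid, against 10.83, 10.89 and 11.06 at day 3, all lower, but missed the call (-0.46 ± 0.16, adjusted p = 0.0571) and was called lower without day 0 replicate 1, day 2 control replicate 3, or day 2 ascorbic acid replicate 2 or 3. Stard4 was called higher without day 0 replicate 2.

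Over the whole course, day 5 control embryoid bodies against day 0, 16 members rose and 0 fell, where 15.9% of all genes were called higher and 14% lower (29.9% in all), and 28 of 28 differences were above 0, against 44.3% of all genes. Of the 36 further probe sets of members, 26 had the same sign of difference as the probe set used, 20 of 22 for the called members. Most of those with the other sign thus belonged to members not called, and 28 of 28 holds only for the probe sets used. The genes with the widest differences came from all 4 roles. Hmgcs1 differed by 1.96 ± 0.18, or 3.90-fold (adjusted p = 8.34e-08), Sc5d by 1.85 ± 0.17 (adjusted p = 8.57e-08), Stard4 by 1.63 ± 0.18 (adjusted p = 8.4e-07) and Scd2 by 1.91 ± 0.34 (adjusted p = 0.000211). Scd2 had 12.88, 12.89 and 12.98 at day 5, against 9.72, 12.07 and 11.24 at day 0, and the day 5 arrays lay close together while the day 0 arrays did not. Idi1 followed another course than Hmgcs1: its mean was 11.02 in day 2 control embryoid bodies, 11.04 at day 3 and 10.70 at day 5, while that of Hmgcs1 was 11.87, 12.06 and 12.51. Fasn had 10.94 at day 2, 10.78 at day 3 and 10.47 at day 5, and its difference of 0.40 from day 0 was not called at day 5 (adjusted p = 0.0734). Srebf1 (0.01) and Acly (0.03) had the smallest differences. Without day 0 replicate 1, 15 members rose, where 31.3% of all genes were called, with Mvk, Lss and Msmo1 lost and Scap and Fasn gained. Without it 24 of 28 differences were above 0, against 47.5% of all genes, and that of Scd2 was 1.26. Cell type markers differed over the same days. Markers of extraembryonic endoderm, a lipid-handling tissue, averaged 7.27 to 7.60 at day 5 and 6.44 to 6.47 at day 0 over 12 of 12 genes. Mesoderm markers averaged 8.62 to 8.97 and 6.54 to 6.72 over 7 of 7, and fibroblast markers 7.64 to 9.01 and 6.69 to 7.22 over 5 of 5. In these 3 lists 6, 4 and 4 genes were called higher and 0 lower, where 15.9% and 14% of all genes were. Differences were above 0 in 10, 7 and 4 of them. The part of these cell types in the lipid genes was not tested.

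The second question is what ascorbic acid did at each day. Group against group, limma called 0 members at day 2, day 3, day 5 or over the 3 days together, where it called 0.0055%, 0%, 0.0605% and 0.0275% of all genes, and 1341, 269, 590 and 877 genes had an unadjusted p under 0.05. Arrays with and without ascorbic acid that share a day and a replicate number deviated together from their group means, so each was also set against its partner. The paired fit called 3 members higher and 0 lower at day 2, where 2.11% of all genes were higher (2.64% in all). It called 0 members at day 3 (0.198% of all genes) and 0 at day 5 (0.956%), where 269 and 590 genes had an unadjusted p under 0.05 in the unpaired fit. Over the 3 days together it called 6 members higher and 0 lower, where 1.45% of all genes were higher (1.94% in all). The differences were small, at most 0.59 at day 2.

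Insig1, the gene of the protein that holds SREBP back and itself an SREBP target, had the widest difference at day 2 and on average. At day 2 it had 9.94, 9.49 and 9.62 with ascorbic acid, against 9.19, 9.02 and 9.08 in controls. All treated arrays were above all control arrays, and the pairs differed by 0.75, 0.47 and 0.54. The mean difference was 0.59 ± 0.097, or 1.5-fold, with adjusted p = 0.0039 in the paired limma fit and 0.676 without pairs. At day 3 it had 9.0, 8.80 and 9.39 with ascorbic acid, against 8.52, 8.33 and 9.23 in controls, and at day 5 it had 9.14, 9.64 and 9.32 against 9.03, 9.53 and 9.07. The treated array was the higher one in 9 of 9 pairs, by 0.37 ± 0.056 on average (adjusted p = 0.00146 in the paired fit, 0.961 without pairs), and the call held in 9 of 9 fits that each left out 1 pair.

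Hmgcs1 was called at day 2 and missed the call at days 3 and 5. With ascorbic acid it had 12.32, 12.23 and 11.86 at day 2, against 11.99, 12.05 and 11.57 in controls. The groups overlapped but the pairs differed by 0.33, 0.18 and 0.29 (0.27 ± 0.064, adjusted p = 0.0341 in the paired fit, 0.733 without pairs). At day 3 it had 12.39, 12.34 and 12.38 with ascorbic acid, against 12.09, 12.00 and 12.08 in controls. The groups were separate and each nearly level, and the difference of 0.31 ± 0.064 missed the call in the paired fit (adjusted p = 0.0617). At day 5 the pairs differed by -0.05, 0 and -0.23. The test of whether the effect changed with day gave adjusted p = 0.0804 for Hmgcs1 in the paired fit and 1 without pairs, so the days were not shown to differ for this gene.

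Msmo1 at day 2 had 10.28, 10.50 and 10.31 with ascorbic acid, against 9.75, 9.56 and 10.22 in controls. Treated arrays were all higher, though the third pair differed by only 0.09 and the others by 0.53 and 0.94 (0.52 ± 0.13, adjusted p = 0.0408 in the paired fit, 0.752 without pairs). Averaged over the days, the paired fit called Msmo1 (0.34 ± 0.075, higher in 8 of 9 pairs), Sqle (0.29 ± 0.071, 7 of 9), Scd1 (0.28 ± 0.060, 9 of 9), Nsdhl (0.20 ± 0.049, 9 of 9) and Hmgcs1 (0.16 ± 0.037, 6 of 9) beside Insig1, with adjusted p of 0.0225, 0.0453, 0.0182, 0.044 and 0.028. Without pairs their adjusted p was 0.998 each. Of the 9 fits that each left out 1 pair, the call held in 6 for Scd1, 4 for Msmo1, 3 for Hmgcs1, 1 for Sqle and 1 for Nsdhl. Mvk was higher in 9 of 9 pairs as well, by 0.14, and was not called (adjusted p = 0.311). The average difference was above 0 in 26 of 28 members, against 51.8% of all genes. In all, 4 of 28 members were higher in every pair, as were 0.973% of all genes, and 6 were higher in at least 8 of 9, as were 4.36%.

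At day 3 most members were higher with ascorbic acid, and 0 were called. Of 28 differences at day 3, 26 were above 0 with a median of 0.285, where 51.5% of all genes were above 0 and their median was 0.00667. In 11 members all ascorbic acid arrays were above all control arrays, as in 3.72% of all genes, and 22 members were higher in every pair, as were 15.5%. The 11 were Hmgcs1, Mvk, Pmvk and Mvd of the mevalonate arm, Lss, Nsdhl and Dhcr7 of the sterol arm, Stard4 and Srebf1, and Scd1 and Acaca. Nsdhl had 9.5, 9.60 and 9.47 with ascorbic acid, against 9.15, 9.19 and 9.15 in controls (0.36 ± 0.084 in the paired fit, adjusted p = 0.149). Lss had 9.87, 9.73 and 9.78 with ascorbic acid, against 8.81, 9.45 and 9.45 in controls, and pair 1 differed by 1.06 while the others differed by 0.28 and 0.33. Its mean difference of 0.56 ± 0.13 was not called either (adjusted p = 0.175). Ebp (-0.10) and Insig2 (-0.06) were the members below 0. Of the 36 further probe sets of members, 28 had the same sign at day 3 as the probe set used. At day 2 it was 25, at day 5 it was 23, and on average over the days 30. Insig1, Sqle and Nsdhl have no further probe set, so their paired calls have no such check.

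At day 2, 25 of 28 differences were above 0, against 47.2% of all genes, with a median of 0.178, and 0.0859 after quantile normalisation. Here 4 members had separate groups, as had 6.73% of all genes, and 11 were higher in every pair, as were 16.6%. The median at day 2 was 0.0233 over the 5 fatty acid genes, while the mevalonate arm had 0.267, the squalene and sterol arm 0.25 and the genes of SREBP control and sterol transport 0.148. Sc5d had 8.53, 8.53 and 8.34 with ascorbic acid, against 7.99, 7.56 and 8.37 in controls, so that pair 3 differed by -0.03 and the others by 0.54 and 0.97 (0.49, adjusted p = 0.0808 in the paired fit). Hsd17b7 had 8.30, 8.17 and 8.06 with ascorbic acid, against 7.60, 7.85 and 7.88 in controls, all separate (0.40, adjusted p = 0.0992 in the paired fit). Members were higher in 25, 20 and 17 of 28 cases in pairs 1, 2 and 3 of day 2, in 25, 24 and 26 at day 3, and in 15, 16 and 15 at day 5. RNA integrity was read on the same pairs, in the same order. At day 2, Actb 3′ read above 5′ by 1.22, 1.40 and 0.94 in controls and 0.91, 1.08 and 0.91 with ascorbic acid. For Gapdh the values were 0.36, 0.63 and 0.17, and 0.15, 0.21 and 0.11. At day 3 Actb had 1.03, 0.96 and 1.05 in controls and 1.28, 1.00 and 1.04 with ascorbic acid. The part of RNA integrity in these differences was not tested.

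At day 5 the members did not differ in one direction. Of 28 differences 18 were above 0, against 52.9% of all genes, the median was 0.0517, 0 members had separate groups (4.08% of all genes had them with ascorbic acid higher), and 4 were higher in every pair, as were 13.3%. Ebp (-0.19) and Fdps (-0.17) were the lowest and Insig1 (0.16) the highest. Whether the effect differed between days was tested for each gene, and 0 members were called (limma F test, 1 of 18193 genes called, 492 at an unadjusted p under 0.05; with pairs, 0 members and 93 genes), so the smaller values at day 5 were not shown to differ from those of day 3.

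**Figure D5:**
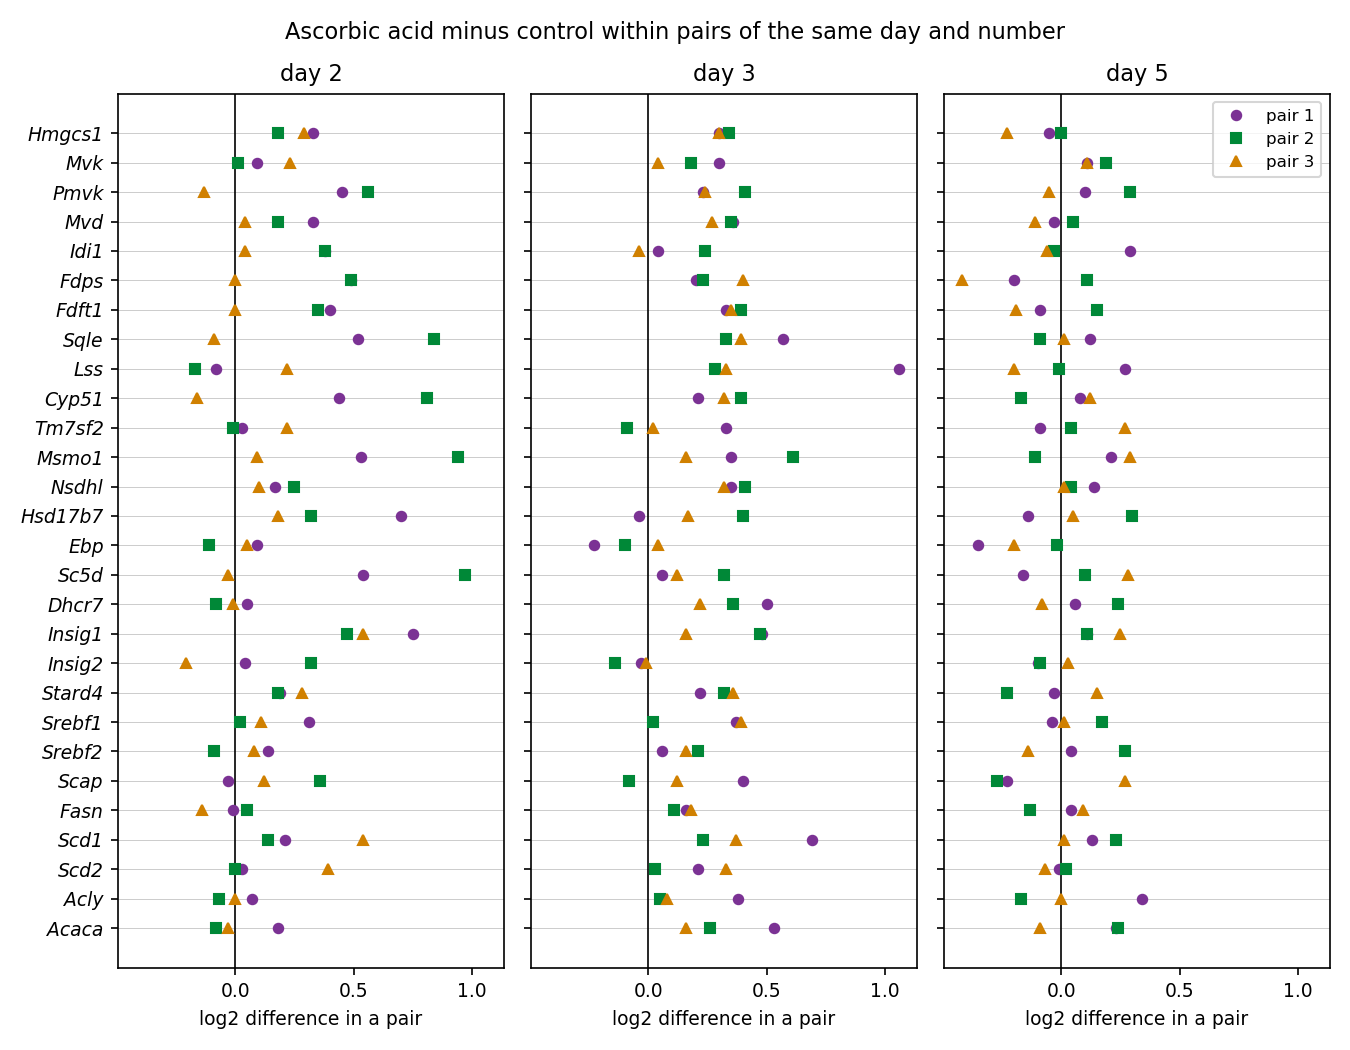
Log2 difference of the ascorbic acid array from the control array of the same day and number (x axis) for each member (rows), with 3 pairs a day. At day 3 nearly all points lie right of 0, in 25, 24 and 26 of 28 members, at day 2 pair 3 stays nearer 0 than pairs 1 and 2 in the sterol genes, and at day 5 the points lie on both sides.

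The paired calls rest on few arrays. At day 2 the paired fit called 0 members without pair 1, Hmgcs1 and Insig1 without pair 2, and 10 without pair 3. Over the 3 days together the count ran between 1 (without pair 1 of day 3 or of day 5) and 10 (without pair 3 of day 2), and it was 4 without pair 2 of day 2, 2 without pair 1 of day 2, pair 2 of day 3 or pair 3 of day 3, and 3 without pair 2 or 3 of day 5. The mean over 4 of 4 neuroectoderm markers was 5.82 to 5.94 against 6.11 to 6.24 in controls at day 2, 6.04 to 6.18 against 6.37 to 6.54 at day 3, and 5.81 to 5.94 against 6.10 to 6.55 at day 5. Of these 4 genes, 0 had a difference above 0 at day 2, 1 at day 3 and 2 at day 5, and the paired fit called Nes lower at day 2 (-0.40, adjusted p = 0.047) and Zic1 lower at days 3 and 5 (-1.25 and -1.82, adjusted p = 0.00301 and 1.54e-05). Zic1 was not called at day 2 (-0.54, adjusted p = 0.0936). Extraembryonic endoderm markers averaged 6.59 to 6.70 with ascorbic acid and 6.73 to 6.83 in controls at day 2, 6.48 to 6.60 and 6.57 to 6.64 at day 3, and 7.34 to 7.80 and 7.27 to 7.60 at day 5. The paired fit called 1 of these 12 higher at day 5. At day 2 it called 1 of 8 stem cell, 1 of 7 mesoderm and 1 of 5 fibroblast markers lower. Of all genes it called 0.539% lower at day 2, 0.104% lower at day 3, and 0.176% lower and 0.781% higher at day 5. The part of these cells in the lipid genes was not tested.

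Members also varied together from array to array. Over 21 arrays, the correlation of a member with the median of the other members had a median of 0.788 and ran from 0.122 (Ebp) to 0.924 (Scd1), with Mvd at 0.922 and Hmgcs1 at 0.916. Taken as deviations from the group means, so that day and treatment drop out, the median was 0.70, and 0.645 over the 18 arrays after day 0, with 26 of 28 above 0. Mvd (0.953), Dhcr7 (0.936) and Fdps (0.894) followed the set most closely after day 0, and Ebp (-0.183) and Hsd17b7 (-0.153) were below 0. These values are a description, since the arrays share groups, hybridisation and normalisation. Insig2, at 0.219 over 21 arrays, followed the set less closely than Insig1, at 0.816.

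Neighbouring pathways were read from lists of genes known to act beside the members. Genes of chain elongation, desaturation and acyl-CoA supply had 3 of 16 called higher and 0 lower in day 2 control embryoid bodies against day 0, where 4.8% of all genes were higher and 6.99% lower. Without day 0 replicate 1 the counts were 4 and 0, where 7.73% and 12.7% of all genes were. Acsl4, an acyl-CoA synthetase that prefers arachidonate, differed by 2.07 ± 0.28 (adjusted p = 0.00012), Fads2, a desaturase of polyunsaturated chains, by 1.29 ± 0.19 (adjusted p = 0.000297) and Acsl3, another synthetase, by 0.62 ± 0.19 (adjusted p = 0.0343). By day 5 control, 7 were higher than at day 0 and 2 lower, with or without that array, where 15.9% and 14% of all genes were, led by Acsl3 at 1.95 ± 0.19 (adjusted p = 1.09e-07). Fads1, which pairs with Fads2, was higher with ascorbic acid over the 3 days by 0.39 ± 0.051 in 9 of 9 pairs (adjusted p = 0.000419 in the paired fit), as were Acsl5 (0.32 ± 0.056) and Fads2 (0.30 ± 0.070), the 3 called of 16, where 1.45% of all genes were called higher; without pairs 0 of 16 were called.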

How the data were processed

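RNA from 21 samples in 7 groups of 3 was hybridised to 1-colour Affymetrix arrays from 100 ng of total RNA. The deposited values are log2 signals of 45101 probe sets, summarised by the authors with RMA per the submitters' processing notes (version not given in the sources used here), and array medians ran from 6.05 to 6.19. They were used as deposited, and the number of arrays limits the precision. Gene names came from the platform annotation: 34945 probe sets had 1 symbol, 932 several and 9211 none, and 34741 were found in RefSeq by Entrez ID, with 0 symbols changed. The probe set with the highest mean stood for each of 18193 genes, and 9010 genes had more than 1.

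One limma model (limma 3.58.1, R 4.3.3; lmFit, eBayes with trend) with 7 group means gave each comparison, with Benjamini-Hochberg adjustment over all genes. The labels do not say whether replicates came from separate cultures, so p-values measure the spread between these samples. Replicate numbers were checked for pairing: deviations from group means correlated at 0.178 to 0.679 in 9 of 9 same-day pairs of ascorbic acid and control (threshold 0.1), so a paired fit over 18 arrays is given beside the unpaired one. Among successive days 6 of 9 pairs with ascorbic acid and 4 of 9 control pairs were over 0.1, and days were not paired.

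All members are named, with values per array for those on which a comparison turns. The members and the lists of neighbouring genes and markers were chosen with earlier results of these data known. The fit was tested on simulated data with independent noise, without paired arrays or a more variable day 0. That test does not bear on the paired calls or on the spread at day 0. Alternatives were the replicate block, repeated quantile normalisation, median centring, a floor of 5 on the log2 signal, all probe sets, fits of only the groups compared, and each array left out. The paired fits without 1 pair, and the counts of neighbouring genes, signs and lowest groups without day 0 replicate 1, were chosen after seeing the data. Of 210 pairs of arrays 0 held identical values. Figures were drawn with Python 3.11.15 and matplotlib 3.10.9.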

Additional observations from a re-analysis of the deposited data

How the results depend on the processing

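Precision is limited by 3 arrays a group and by the spread at day 0. Of the values of members called in a comparison, in the unpaired or the paired fit, 0 changed direction under the alternatives run, 1588 kept their side of the threshold, 129 lost a call and 37 gained one. Each value was set against the unpaired fit. Members called only with pairs were therefore counted as keeping their side wherever they stayed uncalled, also in fits without 1 pair. The 1588 are thus not a count of calls that held, and losses of paired calls are not among the 129. Fits that left out arrays held 1168 of the 1588, and the gains were in paired fits of members not called without pairs. With only the groups compared, 29 lost a call and 29 kept their side, among them the members called only with pairs, which were called in neither of these fits. Against day 0, calls remained for 2 of 13 members in day 2 control, 4 of 17 in day 2 ascorbic acid and 11 of 16 in day 5 control embryoid bodies. Between later days Ebp and Stard4 kept their calls. Differences that were not called could change sign: the members' median for day 3 against day 2 in controls was 0.0483, and -0.0948 after quantile normalisation, and for day 2 control against day 0 Scd2 and Nsdhl had 0.64 and 0.20, and -0.01 and -0.21 without day 0 replicate 1. With the replicate block of day and number, calls of ascorbic acid against control became 3 members and 481 genes at day 2, 36 genes at day 3, 174 at day 5, 6 members and 353 genes on average, and 93 genes for the difference between days. With the replicate number as a block over all arrays, 19 genes were called at day 5, 12 on average, and 2 members between day 3 and day 2 in controls. Quantile normalisation gave 2 genes at day 2, 8 on average (6 higher and 2 lower, against 3 and 2), and 2 members each for day 3 against day 2 and day 5 against day 3 in controls. With the floor on dim genes 0 genes were called at day 2. The mean of all probe sets gave 2 genes at day 2, 3 for the difference between days, and 2 members for day 5 against day 3 in controls. These were Sc5d and Srebf2, and Stard4 was not called. Srebf2 was then also called higher at day 5 than at day 0 in controls, as it was without day 5 control replicate 1. Over every probe set, calls were 2 at day 2, 29 at day 5, 3 for the difference between days, 3548 and 4028 for day 2 control and day 2 ascorbic acid against day 0, 5482 and 5420 for day 5 against day 3 without and with ascorbic acid, 1313 for day 3 against day 2 with it, and 9383 for day 5 against day 0, since more features were tested.

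Fitting only the groups compared gave 2, 5 and 3 genes for ascorbic acid at days 2, 3 and 5, 28 on average and 4 for the difference between days. It gave 2 members and 198 genes for day 2 control against day 0, 4 and 711 for day 2 ascorbic acid against day 0, 6 members for day 5 against day 3 in controls, 3420 genes for day 5 against day 0, 3 members and 1711 genes for day 3 against day 2 with ascorbic acid, and 3 members for day 5 against day 3 with it; fewer samples entered each fit.

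Leaving out 1 array at a time, members called ran from 6 to 16 and genes from 1122 to 3713 for day 2 control against day 0, from 11 to 19 and 1586 to 3562 for day 2 ascorbic acid against day 0, from 13 to 18 and 4490 to 5703 for day 5 against day 0, from 0 to 2 and 258 to 1638 for day 3 against day 2 in controls, from 0 to 2 and 217 to 1357 with ascorbic acid, from 0 to 3 and 2224 to 4040 for day 5 against day 3 in controls, and from 0 to 1 and 2183 to 3952 with ascorbic acid. For ascorbic acid against control, genes ran from 0 to 8 at day 2, 0 to 1 at day 3, 1 to 54 at day 5, 1 to 19 on average and 1 to 11 for the difference between days, with 0 members in each. With the pairing and 1 pair left out, they ran from 0 to 10 members and 89 to 1212 genes at day 2 (209 without pair 2), 6 to 14 genes at day 3, 56 to 184 at day 5 (96 without pair 2), and 1 to 10 members and 189 to 648 genes on average. The genes on average were 215 and 335 without pairs 1 and 2 of day 2, 195 and 208 without pairs 2 and 3 of day 3, and 216, 375 and 331 without pairs 1, 2 and 3 of day 5.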

Other observations

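Of the genes of fatty acid oxidation, 5 of 10 fell and 0 rose in day 2 control embryoid bodies against day 0, where 6.99% of all genes fell and 4.8% rose, and the median difference was -0.352. The count was 6 without day 0 replicate 1, where 12.7% of all genes fell. Cpt1a, which admits fatty acids to mitochondria, differed by -0.93 ± 0.23 (adjusted p = 0.0105), and Slc25a20, the carnitine carrier, by -0.77 ± 0.14 (adjusted p = 0.00111). Acadm and Acadvl, acyl-CoA dehydrogenases, differed by -0.72 and -0.48 (adjusted p = 0.00318 and 0.0219). Ehhadh was called as well (-0.45), at a dim signal of 3.74. With ascorbic acid at day 2, 1 of 10 was lower than at day 0, Slc25a20 (-0.79), and 1 was higher, Hadhb (0.69), a thiolase subunit of the same pathway, where 6.27% of all genes were lower and 7.42% higher. Without day 0 replicate 1, 4 were lower and 1 higher, where 10.8% and 8.75% of all genes were. At day 5 against day 0 in controls, 4 of 10 were lower, and 5 without that array, where 14% and 15.7% of all genes were, with Cpt1a at -1.86 ± 0.23 (adjusted p = 2.49e-06).

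Of the genes of sterol uptake, transport and efflux, in day 2 control embryoid bodies 0 of 13 were higher than at day 0 and 2 were lower, Abca1, the cholesterol exporter (-2.73 ± 0.35, adjusted p = 6.72e-05), and Apoe (-1.79 ± 0.36, adjusted p = 0.00311), where 6.99% of all genes were lower. Without day 0 replicate 1, 4 were lower, where 12.7% of all genes were. Between day 3 and day 5 in controls 7 of 13 rose and 1, Abcg1 (-0.86), fell, where 9.08% of all genes rose and 9.24% fell. Lrp1, an endocytic receptor, rose by 1.22 ± 0.30, Npc2, which takes cholesterol out of lysosomes, by 1.19 ± 0.19, and Abca1 by 1.45 ± 0.35 (adjusted p of 0.00595, 0.000137 and 0.00542). Of the genes of SREBP processing and sterol sensing, 0 of 8 were higher at day 2 and 2 were lower: Mbtps2 (-0.86 ± 0.16, adjusted p = 0.00136) and Mbtps1 (-0.52 ± 0.15, adjusted p = 0.0278), which encode the proteases that cut SREBP free. Leaving out day 0 replicate 1 gave 1 higher and 3 lower. In the isoprenoid branch, which uses farnesyl diphosphate for other ends, 1 of 11 was higher, Fnta (0.64 ± 0.10), and 3 were lower, Fntb (-0.72), Coq2 (-0.59) and Pggt1b (-0.56), and 2 were higher and 3 lower without that array. Over all genes 4.8% were higher and 6.99% lower with all arrays, and 7.73% and 12.7% without it. Between ascorbic acid and control, limma called 0 genes of the oxidation, sterol transport, SREBP processing and isoprenoid lists at any day, with or without pairs.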
